A study of Mus musculus with 8 samples.

Results

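The comparison set mouse leukemic cells labelled with a hairpin against Sirt1 and kept 21 days in the DOT1L inhibitor EPZ4777 against cells labelled with a hairpin against luciferase (shLUC) and kept 6 days in the same drug. It was chosen by the sample titles and used 4 of the 8 arrays of the series, 2 in each group. All samples were RNA of murine leukemic cells that carry MLL-AF9, the product of a translocation that joins the amino end of MLL to AF9. All cells grew in medium with 15% serum, with SCF at 20 ng/ml and with both IL-3 and IL-6 at 10 ng/ml. The groups were labelled shSirt1 with 3 µM EPZ4777 for 21 days (codes A1 and A5), shLUC with 3 µM EPZ4777 for 6 days (A4 and D11), labelled shSirt1 in DMSO (A1 and A5) and shLUC in DMSO (A4 and D11). The shLUC hairpin has no mouse target and served as the control. Hairpin label, code and days in drug changed together between the EPZ4777 groups, so their parts in any difference cannot be told apart. No time is given for the DMSO arrays. The labels state neither what a code stands for (a hairpin, a clone or a culture) nor whether both arrays of a group had a culture of their own, so each p-value reflects the spread among these arrays alone, and that spread may be technical. The number of arrays limits the precision: with 2 per group, exact permutation gives no p under 0.333.

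DOT1L places methyl groups on histone H3 within transcribed genes, and MLL fusion proteins recruit it to genes such as Hoxa9 and Meis1, which keep myeloid progenitors immature. Inhibitors of DOT1L lower these genes and let MLL-rearranged cells mature along the myeloid lineages. Neutrophils and macrophages are separate ends of that maturation: neutrophils fill granules with lactoferrin and other antimicrobial proteins, while macrophages make C1q, scavenger receptors, chemokines and lysosomal proteases. Sirt1 encodes an NAD-dependent deacetylase that acts on histones and on transcription factors.

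Sirt1 was reported first as a check of the labels. Its level on a log2 scale of array intensity was 8.85 (A1) and 9.73 (A5) in cells labelled shSirt1 at 21 days, against 9.44 (A4) and 9.83 (D11) in shLUC cells at 6 days. On the linear scale A1 stood at 57.3% and A5 at 105% of the mean of the shLUC arrays in EPZ4777, and in DMSO the same codes stood at 56.5% and 102% of the shLUC mean. Array A1 lay below both controls and A5 lay between them, so the groups overlapped and the array labelled shSirt1 A5 went against its label. The group difference was -0.35 ± 0.36 (SE), with a limma adjusted p of 0.785, and without A1 it was 0.090. The name "labelled shSirt1" is used throughout for that reason.

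Of 18193 genes tested, 12 were higher in cells labelled shSirt1 at 21 days than in shLUC cells at 6 days (0.0660% of the genes tested) and 44 were lower (0.242%), together 0.308%, at an adjusted p under 0.05 from limma with Benjamini-Hochberg adjustment. By 1 log2 unit or more, 10 of them were higher and 40 lower. Below, a gene that rose or fell was higher or lower in cells labelled shSirt1 at 21 days than in shLUC cells at 6 days. These words describe the difference between the groups and not a change from DMSO. The median difference over all genes was 0.01 and 51.6% of the genes had a positive difference, so the excess of lower genes was among the calls and not in the bulk of the genes. The typical standard error of a difference was 0.14. The groups did not overlap for any of the 56 genes. For comparison, both arrays labelled shSirt1 lay above both shLUC arrays for 21.0% of all genes tested and below both for 18.2%. These shares are the background for every count of list members without overlap in EPZ4777.

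The count of calls rested on single arrays. It was 0 without the shLUC array D11 at 6 days, where 1986 genes still had an unadjusted p under 0.05, and it was 15 without the shLUC array A4 at 6 days. It was 11 without the labelled shSirt1 array A5 at 21 days and 50 without A1, with 8 and 22 of the 56 genes among them. Arrays that were not compared entered through the shared spread: the count was 2 without the shLUC DMSO array A4 or D11, and 73 without the labelled shSirt1 DMSO array A1 or A5. With only the 4 arrays compared it was 14, of which 9 were among the 56.

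**Figure D1:**
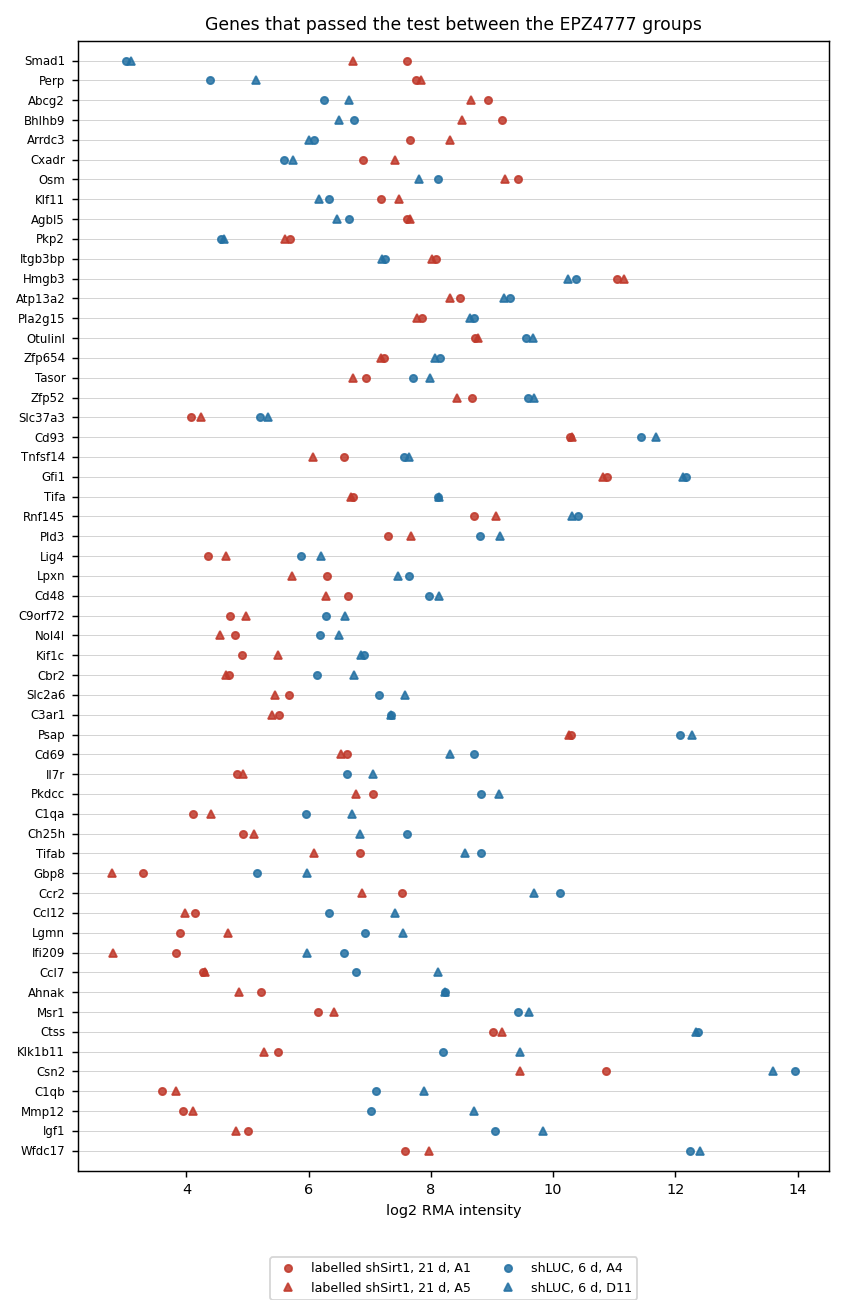
Level (log2 intensity) of each of the 56 genes that passed on the 4 EPZ4777 arrays, with 1 row per gene, the 12 higher genes above the 44 lower ones, red for cells labelled shSirt1 at 21 days and blue for shLUC cells at 6 days. The red and blue points do not overlap in any row, and the difference between the group means is widest at both ends, for Smad1 at the top and Wfdc17 at the bottom.

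Macrophage genes were mostly lower. Of 25 measured genes of a macrophage list 23 were lower in cells labelled shSirt1 at 21 days than in shLUC cells at 6 days, with a median difference of -1.60 against 0.01 over all genes. C1qa, C1qb, Msr1 and Mmp12 fell, and no member passed in the other direction. For 18 of the 25 both arrays labelled shSirt1 lay below both shLUC arrays, beside a background of 18.2%. The mean log2 level of the list was 5.81 (A1) and 6.05 (A5) in cells labelled shSirt1, against 7.34 (A4) and 7.75 (D11) in shLUC cells. In DMSO it was 6.05 (A1) and 5.99 (A5) in cells labelled shSirt1, against 6.25 (A4) and 6.55 (D11) in shLUC cells, so the shLUC arrays in drug stood above the other 6. In bulk RNA, fewer cells of a type and less RNA per cell cannot be told apart.

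C1qb encodes a chain of C1q, the recognition protein of the classical complement pathway. Its log2 level was 3.60 (A1) and 3.83 (A5) in cells labelled shSirt1 at 21 days, against 7.09 (A4) and 7.89 (D11) in shLUC cells at 6 days, and it lay between 3.84 and 4.45 on the 4 DMSO arrays. Only the shLUC arrays in EPZ4777 stood out from a level near the floor of the arrays, the lower quartile over all genes being 4.26. The difference was -3.77 ± 0.28 (adjusted p = 0.0143), and since the level in cells labelled shSirt1 was at the floor its size is a lower limit of the change. The neighbouring chain genes followed: C1qa was at 4.11 and 4.41 in cells labelled shSirt1, against 5.96 and 6.70 in shLUC cells, a difference of -2.07 ± 0.25 (adjusted p = 0.040). C1qc had 3.99 and 4.37 in cells labelled shSirt1, against 5.70 and 6.65 in shLUC cells, and did not pass (-1.99 ± 0.33, adjusted p = 0.0745). C1qb, C1qc and C1qa lie next to each other on mouse chromosome 4.

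The promoters of 4 genes are shown because 2 of them belong to that cluster of neighbours, Ctss was among the most abundant genes that fell, and Smad1 had the highest rise. Each window holds the 250 bases before the annotated start, from RefSeq on GRCm38.p6, written in the direction of the gene. Capitals mark GAGGAA, the core bound by PU.1 and other ETS factors, TGCTGA, the core of a MAF recognition element, or AANNGAAA, the core bound by IRF factors, on either strand. The C1qb window is chr4:136886201-136886450 on the minus strand, that of C1qc chr4:136892915-136893164 on the minus strand, that of Ctss chr3:95526536-95526785 on the plus strand and that of Smad1 chr8:79399429-79399678 on the minus strand.
C1qb: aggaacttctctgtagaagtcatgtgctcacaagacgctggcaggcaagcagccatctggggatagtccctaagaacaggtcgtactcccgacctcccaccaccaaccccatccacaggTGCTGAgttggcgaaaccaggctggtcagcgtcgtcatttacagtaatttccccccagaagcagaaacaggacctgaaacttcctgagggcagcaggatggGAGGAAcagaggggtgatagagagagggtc
C1qc: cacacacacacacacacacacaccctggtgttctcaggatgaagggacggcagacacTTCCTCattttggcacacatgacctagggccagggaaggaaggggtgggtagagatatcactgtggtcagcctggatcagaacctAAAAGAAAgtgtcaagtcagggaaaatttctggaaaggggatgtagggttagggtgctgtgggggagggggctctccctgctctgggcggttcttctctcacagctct
Ctss: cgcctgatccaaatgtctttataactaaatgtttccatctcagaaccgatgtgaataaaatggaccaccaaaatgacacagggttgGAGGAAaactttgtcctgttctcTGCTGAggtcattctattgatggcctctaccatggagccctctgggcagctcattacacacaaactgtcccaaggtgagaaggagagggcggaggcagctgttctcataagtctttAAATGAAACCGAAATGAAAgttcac
Smad1: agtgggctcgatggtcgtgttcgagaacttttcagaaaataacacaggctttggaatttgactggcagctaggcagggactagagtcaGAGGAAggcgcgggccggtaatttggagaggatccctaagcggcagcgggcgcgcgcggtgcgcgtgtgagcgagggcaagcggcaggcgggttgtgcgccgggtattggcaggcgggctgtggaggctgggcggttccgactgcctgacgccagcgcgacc
The ETS core was in all 4 windows, as GAGGAA or its reverse complement. The IRF core occurred 3 times, overlapping, in the Ctss window. It occurred once in the C1qc window. The MAF core was in the windows of C1qb and Ctss. Windows were held for 45 of the 56 genes. Among 37 genes that fell, 11 windows held GAGGAA, 8 held TGCTGA and 11 held AANNGAAA, and among 8 genes that rose 2, 0 and 0 did. Over all 27025 windows of this length the shares were 23.1%, 15.8% and 21.6%, and over the 14452 windows of measured genes they were 22.7%, 14.4% and 17.8%. A match describes the letters of a window and not a bound site.

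Msr1 and Mmp12 were the other members that fell. Msr1, the class A scavenger receptor, had 6.16 (A1) and 6.41 (A5) in cells labelled shSirt1 at 21 days, against 9.43 (A4) and 9.61 (D11) in shLUC cells, a difference of -3.24 ± 0.36 (adjusted p = 0.0341). Averaged over its 4 probe sets the Msr1 difference was -1.89. Mmp12, the macrophage elastase, had 3.95 and 4.10 in cells labelled shSirt1, against 7.02 and 8.71 in shLUC cells, and between 3.70 and 4.48 on the DMSO arrays. The Mmp12 difference was -3.84 ± 0.49 (adjusted p = 0.0411, and 0.0625 with a robust variance), with the shLUC array D11 well above A4. Mmp13, the collagenase gene next to Mmp12, had 3.12 and 3.01 in cells labelled shSirt1, against 6.25 and 7.49 in shLUC cells, and did not pass (adjusted p = 0.0575). Over the 13 matrix metalloproteinase and inhibitor genes measured the median was -0.32, with 12 negative, 5 below without overlap and Mmp12 the 1 that passed.

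Several defining macrophage genes had large differences that missed the threshold. Maf, a transcription factor of resident macrophages, had 6.21 and 5.88 in cells labelled shSirt1, against 9.57 and 10.98 in shLUC cells (-4.23 ± 0.61, adjusted p = 0.0543). Mrc1, the mannose receptor, had 4.04 and 6.39 in cells labelled shSirt1, against 8.62 and 9.80 in shLUC cells (-3.99 ± 0.80, adjusted p = 0.105). Adgre1, which encodes F4/80, had 7.44 and 7.14 in cells labelled shSirt1, against 9.37 and 9.80 in shLUC cells (-2.30 ± 0.36, adjusted p = 0.0619). None of these pairs of groups overlapped. Without drug the same genes were also lower without overlap. Maf had 5.17 and 6.09 in DMSO in cells labelled shSirt1, against 6.58 and 8.04 in shLUC cells. Mrc1 had 3.53 and 4.35 there, against 4.48 and 5.55. Adgre1 had 6.82 and 8.0 there, against 9.06 and 9.06. The list was not uniform: Pparg, a lipid-sensing nuclear receptor of alveolar macrophages, had 9.10 and 9.08 in cells labelled shSirt1, against 8.05 and 8.53 in shLUC cells (0.80 ± 0.26, adjusted p = 0.248). Spic, a factor of red pulp macrophages, was near the floor on all arrays, at 3.46 and 3.34 in cells labelled shSirt1, against 3.46 and 3.40 in shLUC cells.

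The summed intensity of 8 macrophage markers was 504 (A1) and 641 (A5) in cells labelled shSirt1 at 21 days, against 3278 (A4) and 5921 (D11) in shLUC cells at 6 days. In DMSO it was 440 (A1) and 978 (A5) in cells labelled shSirt1, against 1616 (A4) and 2208 (D11) in shLUC cells. The order of the labels was thus the same with and without drug, and the shLUC arrays with drug were the highest. All 8 markers were above the lower quartile of all genes on at least 1 of the 4 EPZ4777 arrays. Of the other marker sets, that of megakaryocytes had the same order in EPZ4777, with 4 markers summing to 425 and 509 in cells labelled shSirt1, against 1063 and 859 in shLUC cells, and the remaining sets overlapped between the groups. The 8 measured neutrophil markers summed to 60735 (A1) and 102381 (A5) in cells labelled shSirt1, against 59658 (A4) and 99599 (D11) in shLUC cells. The 6 stroma markers summed to between 148 and 165 on the 4 EPZ4777 arrays. Stroma markers stood apart on the labelled shSirt1 DMSO array A1, at 483, and Fabp4, a fatty acid carrier of adipocytes and macrophages, reached 13.18 on that array. Without that array 73 genes passed in EPZ4777 and 0 in DMSO.

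**Figure D2:**
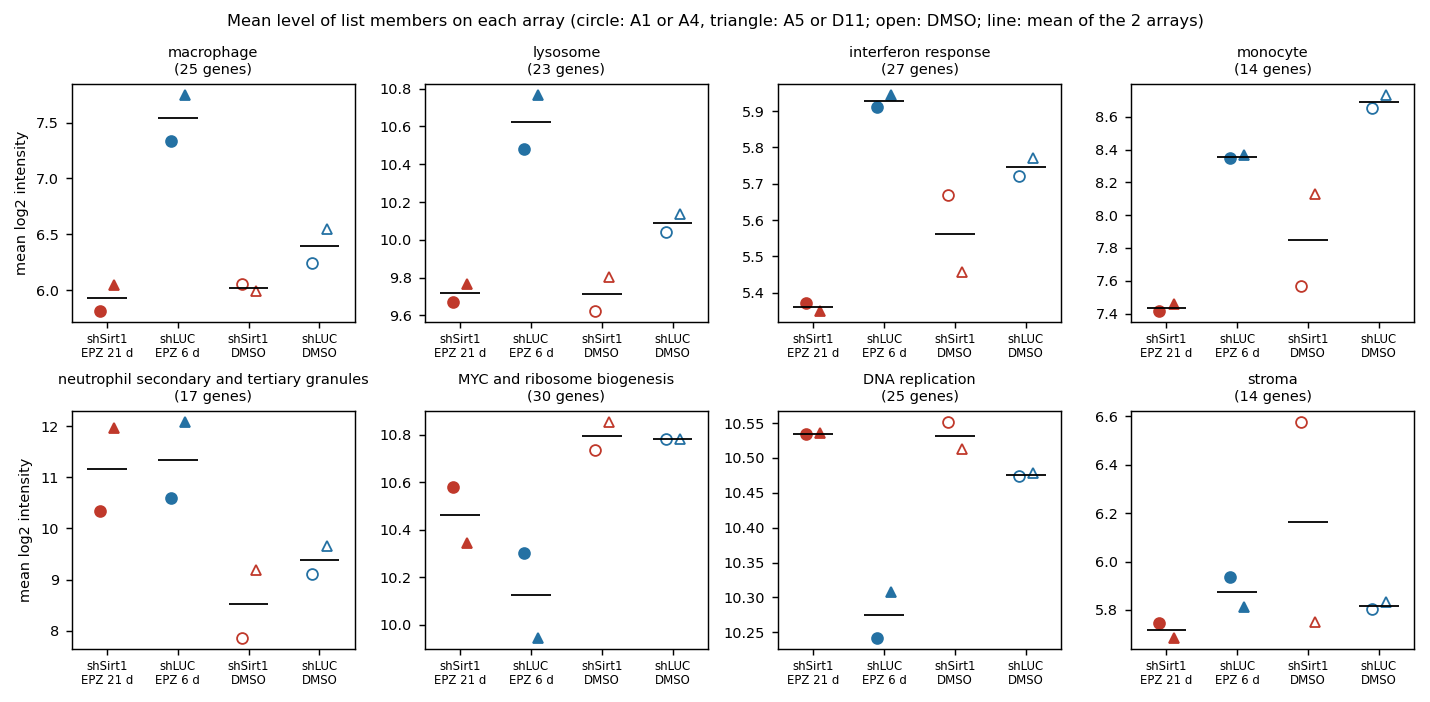
Mean log2 intensity of the measured members of 8 gene lists on each of the 8 arrays, 1 panel per list with its own scale, in the order labelled shSirt1 at 21 days, shLUC at 6 days, labelled shSirt1 in DMSO and shLUC in DMSO, with a line at the mean of each pair of arrays. The macrophage and lysosome points of the shLUC arrays in EPZ4777 lie above all others, the granule panel separates the arrays within both EPZ4777 groups, and the stroma panel shows the labelled shSirt1 DMSO array A1 apart from the rest.

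The chemokine genes Ccl7 and Ccl12 and the receptor gene Ccr2 fell. Of 23 chemokine and receptor genes 16 had a negative difference with a median of -0.18, and 3 passed downward and none upward. Below without overlap lay 9 of the 23, beside a background of 18.2%. In DMSO the median of the list was -0.45, so by the median the difference between the labels was not smaller without drug. The mean log2 level of the list was 6.59 (A1) and 6.53 (A5) in cells labelled shSirt1 at 21 days, against 7.21 (A4) and 7.37 (D11) in shLUC cells at 6 days. In DMSO it was 6.26 and 6.45 in cells labelled shSirt1, against 6.80 and 6.96 in shLUC cells. Ccl7, Ccl12 and Ccr2, selected in EPZ4777, differed less in DMSO, by -0.90, -0.96 and -1.09. The ligand Ccl7 had 4.27 and 4.30 in cells labelled shSirt1 at 21 days, against 6.78 and 8.11 in shLUC cells at 6 days (-3.16 ± 0.41, adjusted p = 0.0411, and 0.0589 with a robust variance). The ligand Ccl12 had 4.15 and 3.98 in cells labelled shSirt1, against 6.33 and 7.41 in shLUC cells (-2.80 ± 0.35, adjusted p = 0.0402). Both ligands rested on levels near the floor in cells labelled shSirt1. Their neighbour on chromosome 11, Ccl2, had 5.09 and 5.18 in cells labelled shSirt1, against 8.0 and 9.17 in shLUC cells, with an adjusted p of 0.0709. Ccr2, the shared receptor of these ligands on monocytes, had 7.54 and 6.87 in cells labelled shSirt1, against 10.11 and 9.69 in shLUC cells (-2.70 ± 0.28, adjusted p = 0.0340). Ccr2 was highest in DMSO, at 9.85 and 10.45 in cells labelled shSirt1, against 11.27 and 11.21 in shLUC cells, unlike the ligands. Ccl3, a chemokine of inflammatory myeloid cells, lay the other way without overlap (0.75) and did not pass.

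The monocyte list had the same direction, with 11 of 14 genes lower and a median of -0.63. In it 1 gene passed (Ccr2), and 6 lay below without overlap, beside a background of 18.2%. Csf1r, the receptor for macrophage colony-stimulating factor, had 7.49 and 8.15 in cells labelled shSirt1, against 10.08 and 10.29 in shLUC cells (-2.37 ± 0.48, adjusted p = 0.108). Irf8, a factor needed for monocytes and dendritic cells, had 5.95 and 4.98 in cells labelled shSirt1, against 7.57 and 7.02 in shLUC cells (-1.82 ± 0.33, adjusted p = 0.0918). Klf4, another monocyte factor, had 7.44 and 6.51 in cells labelled shSirt1, against 9.05 and 8.83 in shLUC cells (-1.96 ± 0.33, adjusted p = 0.0772). In DMSO the median of the monocyte list was -0.71, so its difference between the labels was of similar size without the drug. Klf4 alone differed by -1.88 there. Csf1r had 7.62 and 9.13 in DMSO in cells labelled shSirt1, against 9.79 and 10.32 in shLUC cells. Irf8 had 8.90 and 8.53 there, against 9.16 and 9.40.

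Lysosomal genes were lower nearly throughout. Of 23 genes 22 had a negative difference, with a median of -0.63, and for 20 the arrays labelled shSirt1 lay below both shLUC arrays. Ctss and Psap passed. Ctss, the protease cathepsin S that trims the class II invariant chain, had 9.02 (A1) and 9.17 (A5) in cells labelled shSirt1 at 21 days, against 12.38 (A4) and 12.34 (D11) in shLUC cells at 6 days. The Ctss difference was -3.26 ± 0.29, a 9.61-fold lower level (adjusted p = 0.0193), and arrays within a group differed little. Psap, the precursor of the saposins that assist glycolipid breakdown, had 10.29 and 10.26 in cells labelled shSirt1, against 12.08 and 12.27 in shLUC cells (-1.90 ± 0.16, adjusted p = 0.0193).

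Other cathepsins were lower without passing. Ctsb had 10.60 and 11.06 in cells labelled shSirt1, against 11.95 and 12.35 in shLUC cells, a difference of -1.32 with an adjusted p of 0.0610. Ctsl had 10.65 and 10.90 in cells labelled shSirt1, against 12.06 and 12.23 in shLUC cells, with an adjusted p of 0.0700. Tfeb, the transcription factor that drives lysosomal genes, had 7.10 and 7.35 in cells labelled shSirt1, against 7.23 and 7.18 in shLUC cells (0.02 ± 0.13). Its groups overlapped, and it was the member with a positive difference. Outside the list, further genes whose products work in the lysosome or its membrane fell: Lgmn, the asparaginyl endopeptidase (-2.95), Pld3, an exonuclease (-1.48), Pla2g15, a phospholipase (-0.86), Atp13a2, a polyamine transporter (-0.85), and Slc2a6, a sugar transporter (-1.81). These were grouped after their values were seen. The mean log2 level of the lysosome list was 9.67 (A1) and 9.77 (A5) in cells labelled shSirt1, against 10.48 (A4) and 10.77 (D11) in shLUC cells, and in DMSO 9.62 and 9.80 in cells labelled shSirt1, against 10.04 and 10.13 in shLUC cells. By this mean, cells labelled shSirt1 had about their DMSO level, and the shLUC arrays in drug stood above the other 6. The members that passed differed from it: from DMSO to EPZ4777, Ctss changed by -0.92 and Psap by -0.89 in cells labelled shSirt1. In shLUC cells they changed by 1.01 and 0.36. Outside the list, both shLUC arrays in drug were the highest for Lgmn, Pld3 and Pla2g15, but not for Slc2a6 and Atp13a2.

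Wfdc17 and Igf1 had the largest falls, of nearly equal size, and their order turned under quantile normalization (-4.53 and -4.58). Wfdc17, a small secreted protein of activated macrophages and microglia, had 7.58 (A1) and 7.96 (A5) in cells labelled shSirt1 at 21 days, against 12.23 (A4) and 12.41 (D11) in shLUC cells, a difference of -4.55 ± 0.58 (adjusted p = 0.0411, and 0.0716 with a robust variance). Wfdc17 was already at 8.92 and 10.86 in DMSO in cells labelled shSirt1, against 11.58 and 12.36 in shLUC cells. Igf1, insulin-like growth factor, had 5.01 and 4.81 in cells labelled shSirt1 at 21 days, against 9.05 and 9.83 in shLUC cells (-4.54 ± 0.45, adjusted p = 0.0315). In DMSO Igf1 had 8.05 and 6.67 in cells labelled shSirt1, against 8.11 and 8.59 in shLUC cells, so the arrays labelled shSirt1 in drug were the lowest of the 8 and the shLUC arrays in drug the highest.

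Csn2, the milk protein beta-casein, a classical target of the cytokine-activated factor Stat5 in mammary gland, was abundant in these cells. Its level was 10.87 and 9.46 in cells labelled shSirt1 at 21 days, against 13.96 and 13.60 in shLUC cells at 6 days. The 4 DMSO arrays lay between them, with 12.46 and 12.54 in cells labelled shSirt1, against 12.50 and 12.30 in shLUC cells. The Csn2 difference was -3.61 ± 0.40 with drug (adjusted p = 0.0341) and 0.11 ± 0.40 without. The Stat5 genes themselves differed little: Stat5a by -0.23 and Stat5b by 0.15, neither passing. Klk1b11, a kallikrein-family serine protease, had 5.50 and 5.26 in cells labelled shSirt1, against 8.20 and 9.46 in shLUC cells (-3.45 ± 0.40, adjusted p = 0.0360). Probes of Klk1b11 may also bind transcripts of close relatives, as may those of Ifi209 and Gbp8, which was not tested.

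Ahnak, a very large scaffold protein under the plasma membrane, had the lowest adjusted p of the genes named here together with C3ar1, the receptor for the complement fragment C3a. Ahnak had 5.22 and 4.86 in cells labelled shSirt1 at 21 days, against 8.24 and 8.23 in shLUC cells, and 6.99 and 6.77 in DMSO in cells labelled shSirt1, against 7.37 and 7.72 in shLUC cells (-3.20 ± 0.17, adjusted p = 0.00292). The mean of its 4 probe sets differed by -0.98. C3ar1 had 5.51 and 5.39 in cells labelled shSirt1, against 7.34 and 7.35 in shLUC cells (-1.90 ± 0.10, adjusted p = 0.00292). The C3ar1 arrays agreed closely within each drug group, and so did the Ahnak arrays of shLUC cells. The Ahnak arrays of cells labelled shSirt1 lay farther apart, at 5.22 and 4.86.

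Interferon-induced genes were mostly lower. Of 27 genes 24 had a negative difference, with a median of -0.35, and 15 lay below without overlap, beside a background of 18.2%. In DMSO the median of the list was -0.18. Without genes under the median level 9 members were left, with a median of -0.53 in EPZ4777. Ifi209, a member of the PYHIN family of DNA sensors, passed with 3.82 and 2.80 in cells labelled shSirt1 at 21 days, against 6.58 and 5.98 in shLUC cells (-2.97 ± 0.36, adjusted p = 0.0399). With its probe sets averaged it missed the threshold (-2.27, adjusted p = 0.0591). In DMSO Ifi209 had 6.41 and 5.99 in cells labelled shSirt1, against 7.75 and 8.11 in shLUC cells. Irf9, a subunit of the factor that carries type I interferon signals, had 6.12 and 5.86 in cells labelled shSirt1, against 6.99 and 7.39 in shLUC cells (adjusted p = 0.0575). Rtp4 had 3.66 and 3.96 in cells labelled shSirt1, against 4.86 and 5.22 in shLUC cells (adjusted p = 0.0600). Cxcl10, a strongly interferon-induced chemokine, had 5.77 and 4.98 in cells labelled shSirt1, against 5.71 and 5.41 in shLUC cells, so its groups overlapped. The guanylate-binding protein gene Gbp8, outside the list, fell by 2.53.

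Receptors and adhesion proteins of leukocytes were lower as well. Of 17 receptors for growth factors 16 had a negative difference (median -0.34), 8 below without overlap, beside a background of 18.2%, and Il7r passed. In DMSO the median of these receptors was -0.41, so by the median the difference between the labels was not smaller without drug. Il7r, the interleukin-7 receptor alpha chain and a FOXO target in lymphocytes, had 4.84 and 4.92 in cells labelled shSirt1, against 6.63 and 7.05 in shLUC cells (-1.96 ± 0.23, adjusted p = 0.0360). Of 19 integrin and adhesion genes 16 were negative (median -0.36), 8 below without overlap, beside the same background, and none passed. Their median in DMSO was -0.28. Of the other surface proteins, Cd69, an early activation marker, fell by 1.93, Cd48, a SLAM-family ligand, by 1.59 and Cd93, a lectin-like receptor of myeloid and endothelial cells, by 1.27. Tifa, an adaptor that links sensors to NF-kB, had 6.72 and 6.69 in cells labelled shSirt1, against 8.12 and 8.14 in shLUC cells (-1.42 ± 0.10, adjusted p = 0.0122), and its inhibitory relative Tifab fell by 2.23. Without drug the differences of Cd69, Cd48 and Cd93 were -0.10, -1.03 and -0.42, and those of Tifa and Tifab -0.65 and -0.39. The NF-kB and inflammation list of 21 genes had a median of -0.11, and 0 of them passed.

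Among lineage transcription factors Gfi1 passed. Gfi1, a repressor needed to make neutrophils, had 10.88 and 10.82 in cells labelled shSirt1 at 21 days, against 12.18 and 12.12 in shLUC cells at 6 days, and between 10.90 and 11.14 on the DMSO arrays (-1.30 ± 0.12, adjusted p = 0.0193). The shLUC arrays in drug alone were high. Of the 26 factors 19 were lower (median -0.23) and 11 lay below without overlap, beside a background of 18.2%.

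The higher side was shorter and held 12 genes of mixed roles. Smad1, which carries signals of bone morphogenetic proteins from the receptor to the nucleus, had 7.61 (A1) and 6.73 (A5) in cells labelled shSirt1 at 21 days, against 3.01 (A4) and 3.09 (D11) in shLUC cells at 6 days. In DMSO it had 4.43 and 3.44 in cells labelled shSirt1, against 3.47 and 3.35 in shLUC cells, so Smad1 was at the floor of the arrays everywhere except in cells labelled shSirt1 at 21 days and, more weakly, on DMSO array A1. The difference was 4.12 ± 0.37 (adjusted p = 0.0193), and since the shLUC level was at the floor it is a lower limit of the change. No other gene of the 28 BMP, activin and SMAD genes passed, 16 had a positive difference, and the median was 0.06. The closest relatives moved apart: Smad5, which carries the same signals, differed by -0.75 and Smad9 by 0.13. Id1, a textbook target of Smad1, differed by 0.02. Of the receptors, Bmpr1a differed by 0.75 without overlap and did not pass.

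Perp, a membrane protein of desmosomes that p53 induces, had 7.76 and 7.84 in cells labelled shSirt1 at 21 days, against 4.39 and 5.14 in shLUC cells (3.03 ± 0.31, adjusted p = 0.0315). In DMSO Perp had 5.77 and 5.04 in cells labelled shSirt1, against 4.24 and 4.54 in shLUC cells. It was the 1 gene of 17 p53 targets that passed. The list had a median of 0.14 with 8 genes above without overlap, beside a background of 21.0%, among them Cdkn1a (0.35) and Mdm2 (0.28), and Trp53inp1 lay at -1.01. Pkp2, a second desmosome component, also rose (1.06 ± 0.12, adjusted p = 0.0341). Its mean over 4 probe sets was 0.51 and missed the threshold. Cxadr, a junction protein used by coxsackie and adenoviruses, had 6.89 and 7.41 in cells labelled shSirt1, against 5.60 and 5.75 in shLUC cells (1.48 ± 0.19, adjusted p = 0.0411). Averaged over its 5 probe sets it was at 0.78 and missed the threshold.

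Abcg2, an efflux pump that exports drugs and dyes and marks stem cells of several tissues, had 8.93 and 8.66 in cells labelled shSirt1 at 21 days, against 6.25 and 6.67 in shLUC cells (2.34 ± 0.30, 5.05-fold, adjusted p = 0.0411). In DMSO it had 7.96 and 7.14 in cells labelled shSirt1, against 6.72 and 7.16 in shLUC cells. The other 15 of 16 drug transporter genes did not pass. The list median was -0.17. Abcb1a and Abcb1b, the multidrug pumps, differed by -0.08 and -0.20, and the cholesterol exporters Abca1 and Abcg1 by -1.59 and -0.83.

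Arrdc3, an arrestin-like adaptor for receptor trafficking, had 7.66 and 8.31 in cells labelled shSirt1, against 6.08 and 6.01 in shLUC cells, while the DMSO arrays lay between 8.08 and 8.23. Arrdc3 was therefore low on the shLUC arrays in drug, and not above its DMSO level on both arrays labelled shSirt1 (1.94 ± 0.20, adjusted p = 0.0340). The cytokine gene Osm, oncostatin M, showed the same arrangement, with 9.42 and 9.21 in cells labelled shSirt1, against 8.12 and 7.81 in shLUC cells, and between 9.06 and 9.47 on the DMSO arrays (1.35 ± 0.18, adjusted p = 0.0421). Hmgb3, a chromatin protein of progenitors, lay just above its DMSO level in cells labelled shSirt1 and below it in shLUC cells, with 11.05 and 11.15 in cells labelled shSirt1, against 10.37 and 10.24 in shLUC cells, and between 10.89 and 11.04 in DMSO (0.79 ± 0.11, adjusted p = 0.0491). Bhlhb9 was higher by 2.21 and Klf11, a Krüppel-like repressor, by 1.08. Agbl5, a carboxypeptidase that trims tubulin, was higher by 1.07 and Itgb3bp, a centromere protein, by 0.83. In DMSO these 4 genes differed by 1.16, 0.31, 0.74 and 0.26. From DMSO to EPZ4777 they changed by -0.005, 0.18, -0.15 and -0.28 in cells labelled shSirt1, against -1.06, -0.59, -0.48 and -0.86 in shLUC cells. For Agbl5 1 of 3 and for Itgb3bp 3 of 5 probe sets had a positive difference in EPZ4777. With probe sets averaged both missed the threshold (0.33 and 0.23).

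The place of the drug groups among all 8 arrays is given as a description. These genes were selected on the gap between the drug groups, so an extreme place follows in part from that choice. How many of all genes had such a place was not counted, so the counts below have no background beside them. No time is given for the DMSO arrays, so the counts do not show which group set a call. Of the 44 genes that fell, both shLUC arrays at 6 days were the highest of all 8 for 32, and both arrays labelled shSirt1 at 21 days were the lowest of all 8 for 28. For 16 genes both held. Of the 12 genes that rose, both shLUC arrays at 6 days were the lowest of all 8 for 10 and both arrays labelled shSirt1 at 21 days the highest for 6, with 4 genes showing both. Igf1, Csn2, Ahnak and Ctss belong to the genes extreme on both sides, and for C3ar1, Mmp12 and Ccl7 only the shLUC arrays were extreme. For Wfdc17, Ccr2 and Ifi209 only the arrays labelled shSirt1 were extreme.

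**Figure D3:**
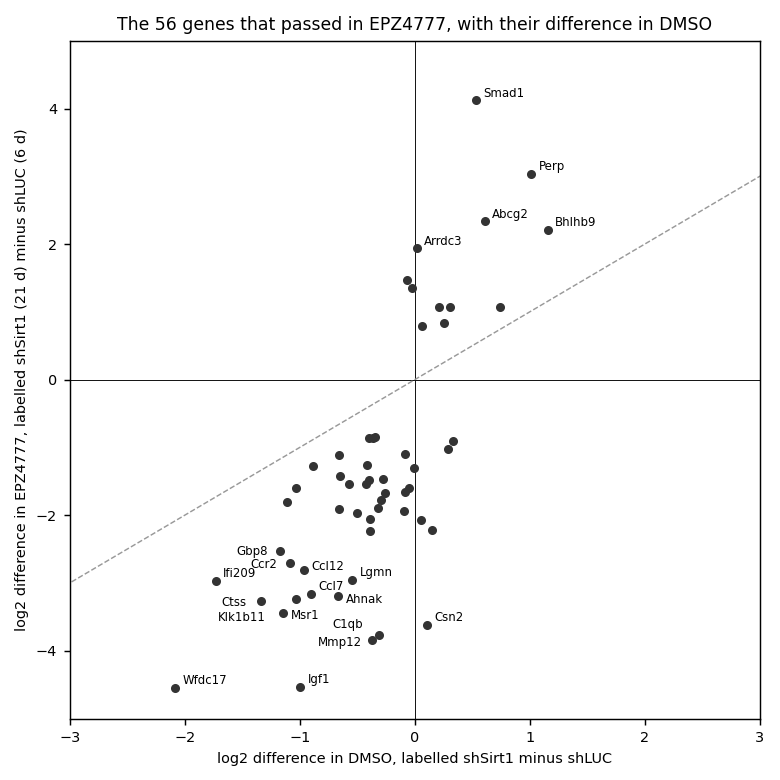
Difference between cells labelled shSirt1 and shLUC cells (log2) in EPZ4777 on the vertical axis and in DMSO on the horizontal axis, for the 56 genes that passed in EPZ4777, with a dashed line where both are equal. Every point is farther from 0 on the vertical axis, from Smad1 at 4.12 down to Wfdc17 at -4.55.

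Between the same labels without drug 0 of 18193 genes passed (0%) in limma, with 985 at an unadjusted p under 0.05, against 2427 with drug. These comparisons share no array. The 56 genes were selected in EPZ4777, so a smaller size in DMSO follows in part from that choice and their DMSO values are given as a description. Of the 44 genes that fell with drug, 39 also had a negative difference in DMSO, 31 of them without overlap of the groups. Of the 12 that rose, 10 were positive in DMSO, 6 without overlap. The median difference over all genes in DMSO was -0.01. The share of all genes without overlap in DMSO was not counted, so these counts have no background beside them. The difference was larger in size with drug than in DMSO for all 56. Tested directly, the difference between the EPZ4777 and the DMSO comparison passed for 0 genes (0%) in limma, with 1221 at an unadjusted p under 0.05. Of the 56 genes 53 were among these. That follows in part from their selection, since the same EPZ4777 arrays enter this test, so it is no separate evidence. The limma fit of this difference does not use the codes that join a DMSO and an EPZ4777 array. With the code as a fixed replicate block 3 genes passed, among them Smad1 (3.59, adjusted p = 0.0244) and C1qb (-3.46, adjusted p = 0.0244), and with the code as a random block 3 genes passed. Without the labelled shSirt1 DMSO array A1, on which stroma markers stood apart, both counts were 0. Without the labelled shSirt1 DMSO array A5, the counts were 155 in DMSO and 89 for the difference.

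Growth-related lists lay on the higher side by small and even amounts, with 0 genes passing. Of 30 MYC and ribosome biogenesis genes 29 were positive (median 0.35), and for 21 both arrays labelled shSirt1 lay above both shLUC arrays, beside a background of 21.0%. Utp20, a factor of small-subunit processing, had 9.61 and 9.26 in cells labelled shSirt1 at 21 days, against 8.80 and 8.51 in shLUC cells (0.78 ± 0.16, adjusted p = 0.116). Odc1, the first enzyme of polyamine synthesis and a MYC target, had 12.40 and 12.08 in cells labelled shSirt1, against 11.75 and 11.37 in shLUC cells (0.68 ± 0.16). Myc itself was the exception, at 10.83 and 10.61 in cells labelled shSirt1, against 11.25 and 10.81 in shLUC cells (-0.31 ± 0.17), with overlapping groups. The mean log2 level of the list was 10.58 (A1) and 10.34 (A5) in cells labelled shSirt1, against 10.30 (A4) and 9.95 (D11) in shLUC cells, and between 10.74 and 10.85 on the DMSO arrays. Every EPZ4777 array was below every DMSO array, and the shLUC arrays were the lowest. In DMSO the median difference of the list was 0.01.

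Of 25 DNA replication genes 24 were positive (median 0.21), and 21 lay above without overlap. Tyms, thymidylate synthase, had 6.71 and 6.78 in cells labelled shSirt1, against 5.23 and 6.18 in shLUC cells (1.04 ± 0.30, adjusted p = 0.198). Cdc6, which loads the replicative helicase, had 10.01 and 9.96 in cells labelled shSirt1, against 9.55 and 9.49 in shLUC cells (0.46 ± 0.10). Rrm2, a subunit of ribonucleotide reductase, had 12.70 and 12.88 in cells labelled shSirt1, against 12.30 and 12.34 in shLUC cells (0.47 ± 0.11). The mean level of the list was 10.53 and 10.54 in cells labelled shSirt1, against 10.24 and 10.31 in shLUC cells, with all DMSO arrays between 10.47 and 10.55, so cells labelled shSirt1 at 21 days lay at the DMSO level. The 22 mitosis genes were less even, with 19 positive, a median of 0.15 and 8 above without overlap, beside a background of 21.0%. The 15 cytosolic ribosomal protein genes had a median of 0.03.

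Neutrophil granule genes split the arrays within each EPZ4777 group, not the EPZ4777 groups. The 17 measured genes of secondary and tertiary granules had a median of -0.17, with 8 positive, 0 that passed and 1 above and 3 below without overlap. Their mean log2 level was 10.35 (A1) and 11.97 (A5) in cells labelled shSirt1 at 21 days, against 10.60 (A4) and 12.08 (D11) in shLUC cells at 6 days. In EPZ4777 arrays A5 and D11 were alike and high, and A1 and A4 alike and low. In DMSO the mean level was 7.86 (A1) and 9.18 (A5) in cells labelled shSirt1, against 9.11 (A4) and 9.66 (D11) in shLUC cells. The median difference of the list there was -0.98. Of 15 measured neutrophil surface and maturation genes 11 were negative in EPZ4777 (median -0.27), with 2 above and 4 below without overlap. Their median in DMSO was -0.57. Ltf, lactoferrin, had 8.10 (A1) and 12.15 (A5) in cells labelled shSirt1, against 7.26 (A4) and 11.27 (D11) in shLUC cells, with an SE of 1.66 for a difference of 0.86. Camp, the cathelicidin precursor, had 12.29 and 14.09 in cells labelled shSirt1, against 11.76 and 13.47 in shLUC cells. The lowest difference of the granule list was -2.02, for Mmp8. Mmp8 had 7.81 and 10.72 in cells labelled shSirt1, against 10.94 and 11.63 in shLUC cells, without overlap. S100a8 and S100a9, the subunits of calprotectin, differed by 0.01 and -0.08. Set against the mean of the shLUC arrays, the median of the granule list was -0.74 for A1 and 0.56 for A5, and the sign of the list's median turned with the array left out. In the same S100 family S100a4, a calcium-binding protein of motile cells, had 7.67 and 5.50 in cells labelled shSirt1, against 10.70 and 10.31 in shLUC cells (-3.92 ± 0.60), and did not pass (adjusted p = 0.0613).

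Genes bound and held active by MLL-AF9 showed no call in the comparison. Meis1, a cofactor of Hox proteins, had 5.26 (A1) and 3.93 (A5) in cells labelled shSirt1 at 21 days, against 4.01 (A4) and 3.62 (D11) in shLUC cells at 6 days, and 7.64 and 6.91 in DMSO in cells labelled shSirt1, against 7.62 and 7.93 in shLUC cells. All EPZ4777 arrays were far below all DMSO arrays, and the drug groups overlapped (0.78 ± 0.44, adjusted p = 0.528). Hoxa9 had 12.17 and 12.63 in cells labelled shSirt1, against 12.30 and 12.48 in shLUC cells (0.01 ± 0.20, adjusted p = 0.993), a sign that turns when an array is left out. Hoxa10 had 8.99 and 9.58 in cells labelled shSirt1, against 9.92 and 10.39 in shLUC cells, and did not overlap (-0.87 ± 0.23, adjusted p = 0.170). Hoxa7 had 8.0 and 8.62 in cells labelled shSirt1, against 7.45 and 7.91 in shLUC cells, and lay the other way (0.63 ± 0.26, adjusted p = 0.372). Dot1l, the drug's target, had 7.67 and 7.75 in cells labelled shSirt1, against 7.64 and 7.68 in shLUC cells (0.05 ± 0.12). The 18 MLL-AF9 targets together had a median of -0.08, with 1 above and 5 below without overlap, and the 9 HoxA genes one of 0.01.

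Stem and progenitor genes were close to level, with a median of 0.13 over 19 genes and 0 that passed. Mpo, the peroxidase of primary granules, had 13.56 and 13.15 in cells labelled shSirt1, against 13.26 and 12.75 in shLUC cells (0.35 ± 0.24), and the groups overlapped. Kit, the SCF receptor, had 9.71 and 9.23 in cells labelled shSirt1, against 9.14 and 9.54 in shLUC cells. Of the 8 genes on the primary granule list 7 had a negative difference (median -0.28). The 1 member that passed was Gfi1, a transcription factor and not a granule protein.

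The 19 sirtuin and NAD metabolism genes had 7 positive differences, a median of -0.18 and 0 that passed, with 2 above and 7 below without overlap. Bst1, a surface enzyme that consumes NAD, had the lowest difference (-1.21), and the desuccinylase gene Sirt5 the highest (0.55). The 22 genes of the DOT1L and MLL-fusion partner complex had a median of 0.07, with 8 above and 3 below without overlap, from Mllt3, which encodes AF9, at -0.47 to Psip1, which tethers MLL to chromatin, at 0.43.

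**Figure D4:**
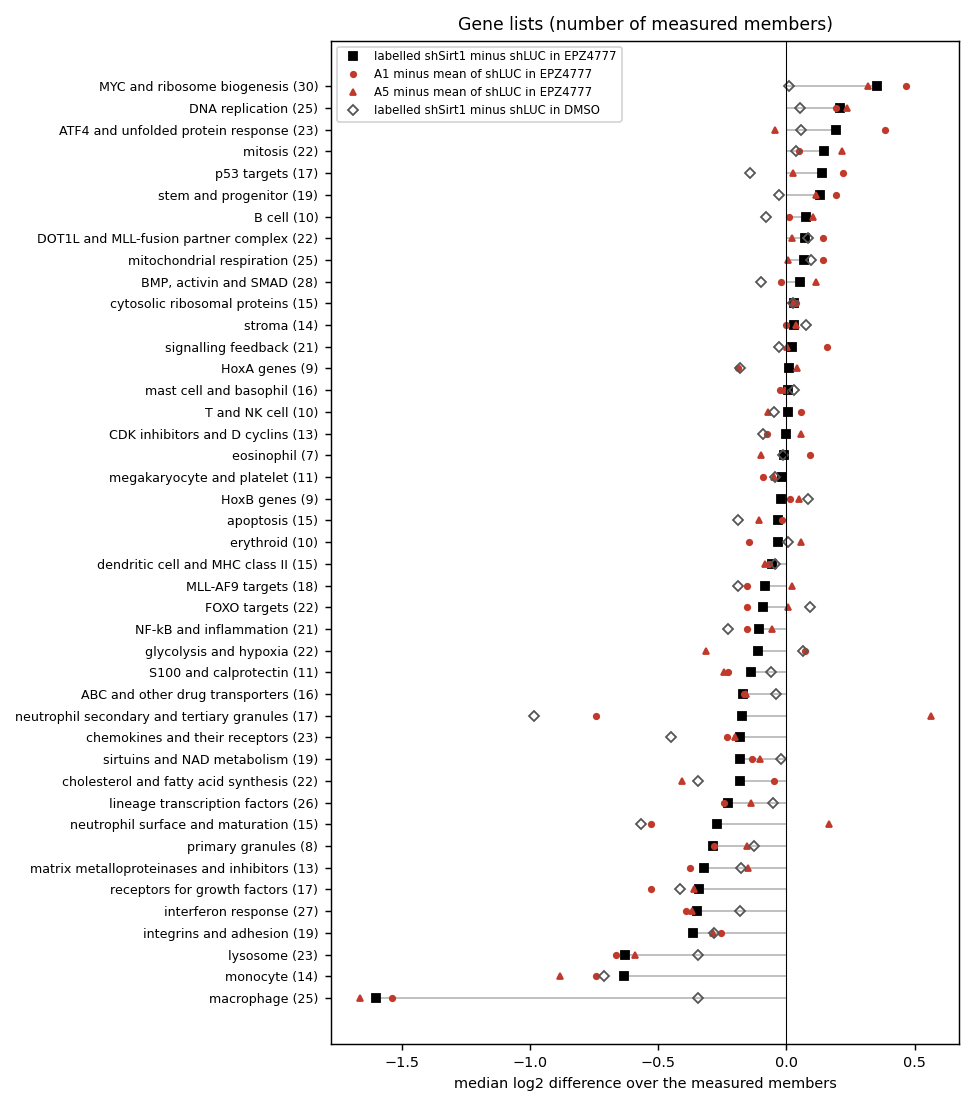
Median log2 difference of each of the 43 gene lists between cells labelled shSirt1 at 21 days and shLUC cells at 6 days in EPZ4777 (black squares), for A1 and A5 each against the shLUC mean (red), and between the labels in DMSO (open diamonds), with a vertical line at 0. The macrophage list at -1.60 lies lowest, the monocyte and lysosome lists at -0.63 follow, and the MYC and ribosome biogenesis list at 0.35 lies highest.

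Metabolic lists differed little. Of 22 cholesterol and fatty acid synthesis genes 19 were negative (median -0.18) with 7 below without overlap. Of 22 glycolysis and hypoxia genes 15 were negative (median -0.11), and 25 mitochondrial respiration genes had a median of 0.07. In DMSO the medians were -0.35 for cholesterol and fatty acid synthesis, 0.07 for glycolysis and hypoxia and 0.09 for mitochondrial respiration. The 23 ATF4 and unfolded protein genes had a median of 0.19. Their highest member, Slc7a11, the cystine importer, had 8.07 and 7.65 in cells labelled shSirt1 at 21 days, against 6.86 and 6.57 in shLUC cells at 6 days (1.15 ± 0.19, adjusted p = 0.0779), and between 8.0 and 8.63 on the DMSO arrays. None of these lists had a gene that passed.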

How the data were processed

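RNA of 8 samples of mouse MLL-AF9 cells was measured on 1 Affymetrix array each. The intensity values that the authors deposited are linear, judged by their range, and the submitters' processing notes name RMA. Its version and the chip definition were not given in the sources used here. RMA normalizes between arrays and compresses low signals, so folds of dim genes are understated. Median log2 intensity lay between 5.21 and 5.27 on the 8 arrays.

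Log2 was taken with no pseudocount and no detection filter. Of 45101 probe sets 64 controls were left out, 34945 had 1 symbol in the platform annotation, 932 several and 9160 were not listed there. The probe set with the highest mean over 8 arrays stood for a gene, which gave 18193 genes. Of the 56 genes that passed, 26 had 2 or more probe sets, all of 1 sign for 22.

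limma 3.58.1 (R 4.3.3, data.table version 1.17.8) fitted 4 group means over all 8 arrays with 4 residual degrees of freedom, two-sided, with Benjamini-Hochberg adjustment over all genes and an adjusted p under 0.05. Comparisons were labelled shSirt1 minus shLUC in EPZ4777, the same in DMSO, and the difference of both. The fit was also run on simulated data, drawn as independent normal values without the pairing by code. No outcome of that run is used here.

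Named were the 12 largest rises and 12 largest falls among genes that passed without overlap, list members that passed or had wide gaps, and Sirt1, Dot1l, Meis1, Hoxa7, Hoxa9 and Hoxa10. Another 32 passed outside that rule; those among them named here were chosen after their values were seen. The 43 lists held 782 different genes, 704 of them measured; members, lists and comparison were chosen with earlier results of these data known, and lists were described without a test. Promoter windows came from RefSeq (GRCm38.p6). The alternatives were the mean of probe sets or every probe set, dim genes left out, other normalizations, variance models and thresholds, the code as a block, and each array left out.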

Additional observations from a re-analysis of the deposited data

How the results depend on the processing

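Of all settings tried, the count of 56 genes in EPZ4777 stayed within 1.5 times of that value with the mean of the probe sets (53), without genes under the median level (39), with quantile normalization (73), median centring (58), a trended (75) or robust (76) variance, the robust one with 53 of the 56 among them and without Wfdc17, Mmp12 and Ccl7, and the code as a random replicate block (71, all 56 among them). Quantile normalization and centring shifted the median difference by -0.0008 and 0.0074. With only the 4 arrays compared the count was 14 (1 higher, 13 lower), at an adjusted p under 0.10 it was 245 (77 higher, 168 lower), and with every probe set by itself, a setting chosen after seeing the data, 120 of 45037 passed. Leaving out 1 array gave 0 to 73 in EPZ4777, 0 to 155 in DMSO and 0 to 89 for the difference between them. A fixed replicate block cannot be fitted to a comparison within an agent, where each code has 1 label; for the difference the fixed and the random replicate block each gave 3 genes, and under the fixed block Smad1 (adjusted p = 0.0244) and C1qb (adjusted p = 0.0244) were among them. Arrays of a code correlated at 0.315 in the random block over all genes, and Sirt1 stood alike on both arrays of A1 and on both of A5; what a code stands for is not given. Sirt1 ranged from -0.79 to 0.090 over the arrays left out, the positive value without labelled shSirt1 array A1. Hoxa9 was -0.081 without shLUC array A4 at 6 days and -0.22 without labelled shSirt1 array A5 at 21 days, and reached 0.24 without A1. Over 12 settings the list medians lay between -2.13 and -1.29 for macrophage, -0.74 and -0.49 for lysosome, -0.98 and -0.63 for monocyte, and 0.20 and 0.52 for MYC and ribosome biogenesis genes, and the granule list went from -0.82 to 0.65. The cause of these changes was not tested.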

Other observations

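Some genes outside the macrophage, lysosome and growth lists had large differences that did not pass. Pf4, platelet factor, had 8.07 and 8.46 in cells labelled shSirt1 at 21 days, against 9.81 and 9.43 in shLUC cells at 6 days (-1.35 ± 0.19, adjusted p = 0.0543), and its DMSO levels were 7.34 and 7.64 in cells labelled shSirt1, against 6.97 and 6.86 in shLUC cells. The order of the labels for Pf4 was thus the opposite in DMSO, without overlap in either agent, while the 11 genes of the megakaryocyte and platelet list had a median of -0.02. Dusp2, a phosphatase that switches off MAP kinases, had 7.73 and 7.87 in cells labelled shSirt1 at 21 days, against 6.80 and 6.86 in shLUC cells (0.97 ± 0.15, adjusted p = 0.0613), and in DMSO 7.22 and 7.56 in cells labelled shSirt1, against 7.78 and 7.97 in shLUC cells, again the opposite order. Bmi1, a Polycomb gene of self-renewing cells, had 10.04 and 9.70 in cells labelled shSirt1 at 21 days, against 9.10 and 9.21 in shLUC cells (0.72 ± 0.14, adjusted p = 0.0938), with all DMSO arrays between 9.86 and 10.02. The test of the difference between EPZ4777 and DMSO passed for none of these genes in the fit without the code as a block.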
